A study of Homo sapiens with 8 samples.

Results

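The genes examined encode 10 enzymes that make serine, glycine, asparagine and proline or that pass on one-carbon units through folate: PHGDH, PSAT1, PSPH, SHMT1, SHMT2, MTHFD2, MTHFD1L, ALDH1L2, ASNS and PYCR1. They were chosen by name, as known targets of the transcription factor ATF4 or neighbours of such targets in the same pathways. Earlier results of these data were known when the genes were chosen. All 10 were found among the 19892 genes of the deposited table by NCBI gene number. MDA-MB-231, an established human cell line of triple-negative breast cancer, had received an siRNA against ADAR1, the enzyme that turns adenosine into inosine in double-stranded RNA, or a control siRNA. Messenger RNA fragments (RNA-seq, called Input) and ribosome-protected fragments (Ribo-seq) were sequenced from each. The 4 groups were ADAR1 siRNA Input, control siRNA Input, ADAR1 siRNA Ribo-seq and control siRNA Ribo-seq, with 2 libraries each. Both arms thus carry an siRNA and come from a single line; neither the target sequence of the siRNA nor the hours of knockdown is stated in the labels. Whether the replicates of a group are separate cultures is not stated either, and p-values therefore cover only library-to-library spread, possibly a technical one.

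Serine is made from a glycolytic intermediate by PHGDH, PSAT1 and PSPH in turn. SHMT1 in the cytosol and SHMT2 in mitochondria then split serine into glycine and a folate-bound one-carbon unit, which MTHFD2 and MTHFD1L carry through mitochondria as far as formate for purine and thymidylate synthesis. ASNS makes asparagine from aspartate and glutamine, and PYCR1 makes proline. ATF4 is made when initiation factor eIF2 is phosphorylated under stress, and it is known to activate many of these genes through C/EBP-ATF response elements. MDA-MB-231 is known as a breast cancer line with little PHGDH.

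Total estimated counts ran from 16364576 to 17153716 in ADAR1 siRNA Input and from 15732757 to 16819821 in control Input. In Ribo-seq they ran from 14646868 to 14875465 with ADAR1 siRNA and from 10492223 to 11975081 with control siRNA. ADAR itself stood at 14.8 and 30.6 TPM (a transcript level corrected for length and depth) in ADAR1 siRNA Input, against 106 and 110.2 TPM in control Input. Its footprint level was 1.55 and 8.41 TPM with ADAR1 siRNA, against 19.1 and 20.3 TPM with control siRNA, so replicate 2 of the ADAR1 siRNA kept more ADAR in both assays. The log2 fold change of ADAR was -2.26 ± 0.32 (SE) in RNA and -2.04 ± 0.47 in footprints (edgeR adjusted p = 0.0527 and 0.0485). The ADAR1 siRNA replicates also lay further apart over all genes than the controls did (SD of log2 differences 0.304 against 0.145 in Input, 0.452 against 0.365 in Ribo-seq). Of 7 markers of the line, VIM, CD44, KRT8, KRT18 and KRT19 were above 100 TPM in all libraries, EPCAM averaged 12.2 to 17.5 TPM per group and CDH2 was under 0.5 TPM. ESR1 and PGR did not pass 0.14 TPM in any library, and CDH1 did not pass 0.33 TPM. ERBB2, listed with them as low or absent, averaged 31.0 TPM in ADAR1 siRNA Input and 33.3 TPM in control Input. Its footprints averaged 9.32 and 6.44 TPM, at a log2 fold change of 0.59 ± 0.17 (edgeR adjusted p = 0.0806). The 12 markers of other cell types summed to 12.1 to 15.7 TPM in ADAR1 siRNA Input and 12 to 14.3 TPM in control Input, and to 7.38 to 9.26 and 8.73 to 9.13 TPM in Ribo-seq; NEUROD1 was at 0 throughout. Among all these markers KRT8 and KRT19 fell in footprints, by 0.96 ± 0.21 and 0.99 ± 0.15 on the log2 scale, and PDGFRB, a marker of stromal cells, rose by 1.22 ± 0.28 (edgeR adjusted p = 0.0261 to 0.0485); their part in the results was not tested.

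The 10 enzyme genes together held 803 and 641 TPM in ADAR1 siRNA Input, against 625 and 628 TPM in control Input. Among footprints their sum was 225.5 and 235 TPM with ADAR1 siRNA, against 291 and 326 TPM with control siRNA. The summed RNA of the set was therefore above both controls in each ADAR1 siRNA library, replicate 2 by little, while summed footprints were below both. The RNA sum leans on SHMT2 and PSAT1, the genes with the highest RNA levels. In ADAR1 siRNA Input replicate 2, PHGDH, SHMT1, SHMT2, MTHFD2 and PYCR1 were below both controls. PSAT1, PSPH, MTHFD1L, ALDH1L2 and ASNS were above both there. Among the enzyme genes tested, ASNS had the largest log2 fold change in RNA and PHGDH the largest in footprints. By edgeR no enzyme gene passed the test across all genes in any comparison. DESeq2 called 1 in RNA, 4 in footprints and 4 in footprints relative to RNA, against 3.55%, 8.15% and 7.58% of all genes. These are bulk libraries, so fewer cells expressing a gene and less RNA per cell cannot be told apart.

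SHMT2 led the RNA levels, at 216 TPM on average with ADAR1 siRNA and 211 TPM with control siRNA, near the 95th percentile of detected genes. PSAT1 followed at 161 and 130.2 TPM. In ADAR1 siRNA Input the order then ran ASNS (81.4 TPM), MTHFD2 (68.3), PYCR1 (59.6), MTHFD1L (44.9), PSPH (38.3), SHMT1 (26.0) and PHGDH (25.5). The libraries of ASNS and MTHFD2, of MTHFD2 and PYCR1, and of SHMT1 and PHGDH overlapped there. In control Input the order was PYCR1 (64.4 TPM), MTHFD2 (55.4), ASNS (41.6), MTHFD1L (37.9), PSPH (32.0), SHMT1 (31.4) and PHGDH (22.5), where the libraries of PSPH and SHMT1 alone overlapped. ASNS thus stood above MTHFD2 and PYCR1 on average with ADAR1 siRNA and below both with control siRNA. ALDH1L2, the mitochondrial enzyme that oxidises one-carbon units to carbon dioxide, was last in both.

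**Figure D1:**
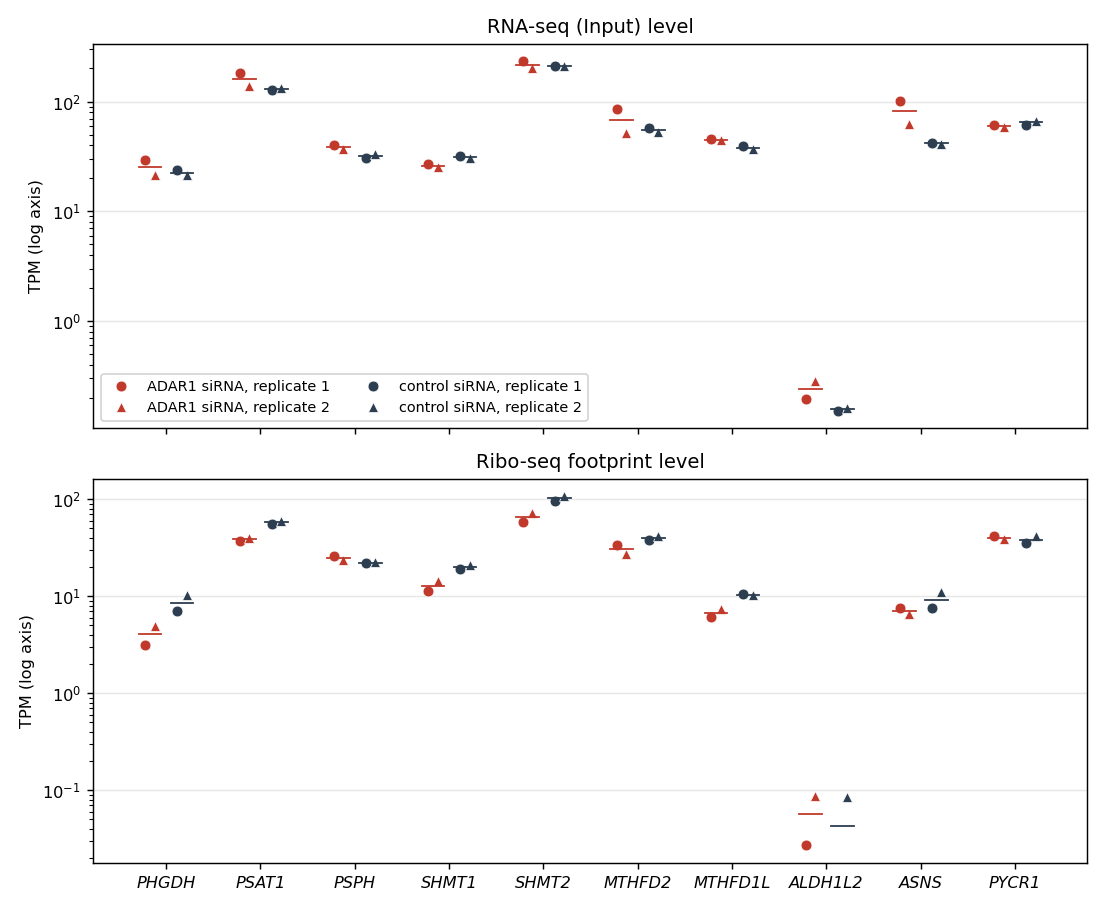
TPM of the 10 enzyme genes in each library on a log axis, RNA-seq above and Ribo-seq below, with ADAR1 siRNA left of control siRNA; circles are replicate 1, triangles replicate 2 and bars group means (n = 2). ASNS RNA lies above both controls, whereas PHGDH, PSAT1, SHMT1, SHMT2, MTHFD2 and MTHFD1L footprints lie below both; the control Ribo-seq library with 0 counts for ALDH1L2 is not drawn.

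PHGDH, the first and rate-limiting enzyme of serine synthesis (NCBI gene 26227; GRCh38.p14 chromosome 1, 119711934 to 119744215), had 29.6 and 21.3 TPM in ADAR1 siRNA Input, against 23.6 and 21.5 TPM in control Input. Its RNA libraries overlapped, with replicate 1 of the ADAR1 siRNA highest. Footprints stood at 3.15 and 4.96 TPM with ADAR1 siRNA, against 7.03 and 10.2 TPM with control siRNA, and did not overlap. The log2 fold change of ADAR1 siRNA over control siRNA, from scaled counts, was 0.15 ± 0.16 (SE) in RNA and -1.01 ± 0.25 in footprints, where edgeR's adjusted p was 0.0542 and just missed the 0.05 threshold. With all Ribo-seq libraries kept, PHGDH passed with DESeq2 and RLE scaling, against 8.15% and 3.92% of all genes. It also passed where counts averaged 50 or more (5.26%), with no filter (10.9%) and with the replicate block (17.5%). It did not pass with limma-voom (2.08%) or upper-quartile scaling (4.06%). These settings refit the same libraries. With 1 library left out the log2 fold change ran from -1.35 to -0.75.

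PSAT1, which takes the amino group for serine from glutamate (gene 29968; chromosome 9, 78297125 to 78330093), had 183 and 139 TPM in ADAR1 siRNA Input, against 128 and 133 TPM in control Input. Its footprint level was 37.0 and 40.0 TPM with ADAR1 siRNA, against 55.4 and 60.2 TPM with control siRNA. RNA was thus above both controls and footprints below both, with no overlap in either assay. The RNA log2 fold change was 0.29 ± 0.11 and the footprint one -0.48 ± 0.15 (edgeR adjusted p = 0.169 and 0.0876).

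PSPH, the phosphatase that releases serine (gene 5723; chromosome 7, 56011064 to 56051444), differed from its pathway partners. It had 39.8 and 36.7 TPM in ADAR1 siRNA Input, against 30.9 and 33.1 TPM in control Input. Its footprints stood at 25.8 and 23.9 TPM with ADAR1 siRNA, against 22.0 and 22.4 TPM with control siRNA. Both assays were thus slightly above the controls without overlap, at log2 fold changes of 0.22 ± 0.10 and 0.25 ± 0.18 (edgeR adjusted p = 0.21 and 0.447). A pseudogene copy, PSPHP1, is not listed in the table, nor are pseudogenes named after PSAT1, SHMT1, MTHFD2 and ASNS. How reads shared with such copies were counted is not stated.

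SHMT1, the cytosolic serine hydroxymethyltransferase (gene 6470; chromosome 17, 18327873 to 18363550), was lower in both assays. Its RNA stood at 26.8 and 25.2 TPM with ADAR1 siRNA, against 32.0 and 30.7 TPM with control siRNA. Footprints were 11.3 and 14.3 TPM with ADAR1 siRNA, against 19.01 and 21.1 TPM with control siRNA. Neither assay overlapped, and the log2 fold changes were -0.32 ± 0.09 and -0.57 ± 0.17 (edgeR adjusted p = 0.113 and 0.0797).

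SHMT2, its mitochondrial counterpart (gene 6472; chromosome 12, 57229711 to 57234935), had 232 and 201 TPM in ADAR1 siRNA Input, against 210.3 and 211 TPM in control Input, with the controls inside the ADAR1 siRNA range. Footprints stood at 58.6 and 72.0 TPM with ADAR1 siRNA, against 96.2 and 107.7 TPM with control siRNA, and did not overlap. Its log2 fold change was 0.02 ± 0.07 in RNA and -0.56 ± 0.14 in footprints (edgeR adjusted p = 0.891 and 0.0601).

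MTHFD2, the mitochondrial dehydrogenase and cyclohydrolase of folate (gene 10797; chromosome 2, 74198615 to 74217565), had 84.6 and 52.0 TPM in ADAR1 siRNA Input, against 57.9 and 52.9 TPM in control Input. Replicate 1 of the ADAR1 siRNA was high and replicate 2 was level with the controls. Its footprints were 34.0 and 27.1 TPM with ADAR1 siRNA, against 38.3 and 41.4 TPM with control siRNA. Log2 fold changes were 0.24 ± 0.16 in RNA and -0.28 ± 0.19 in footprints (edgeR adjusted p = 0.396 and 0.401).

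MTHFD1L, which releases formate in mitochondria (gene 25902; chromosome 6, 150865702 to 151101887), had 45.5 and 44.2 TPM in ADAR1 siRNA Input, against 39.2 and 36.6 TPM in control Input. Footprints stood at 6.13 and 7.43 TPM with ADAR1 siRNA, against 10.5 and 10.2 TPM with control siRNA. As for PSAT1, RNA was above both controls and footprints below both. The log2 fold changes were 0.20 ± 0.09 and -0.37 ± 0.19 (edgeR adjusted p = 0.224 and 0.268). The ratio of its footprint TPM means was lower, at -0.61 on the log2 scale, so the size of its difference depended on the unit.

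ALDH1L2 (gene 160428; chromosome 12, 105019790 to 105084458) had 4 and 15 counts in ADAR1 siRNA Input, against 7 and 8 counts in control Input. In Ribo-seq it had 1 and 3 counts with ADAR1 siRNA, against 0 and 2 counts with control siRNA. It did not pass the filter on low counts, and a difference was not detectable at this depth. Tests therefore covered 9 of the 10 genes.

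ASNS (gene 440; chromosome 7, 97851677 to 97928441) is the textbook ATF4 target of amino acid shortage, and its promoter is printed here because it holds the response element through which that control is known to act. The 250 bases before the start site were read from RefSeq promoters of GRCh38.p14, at the first start listed for each gene, and 6 of the 10 genes matched an entry. The letters TGATGNAA, a core of the C/EBP-ATF response element, were searched on both strands; 2 of the 6 windows held them, those of ASNS and MTHFD1L, as did 3.19% of 27305 promoters of the same length. Capitals mark the match, 68 to 61 bases before the start in ASNS (chr7:97872409-97872658, minus strand) and 129 to 122 bases before it in MTHFD1L (chr6:150866236-150866485, plus strand). The windows of PHGDH, PSAT1, SHMT1 and MTHFD2 held no such letters.
ASNS: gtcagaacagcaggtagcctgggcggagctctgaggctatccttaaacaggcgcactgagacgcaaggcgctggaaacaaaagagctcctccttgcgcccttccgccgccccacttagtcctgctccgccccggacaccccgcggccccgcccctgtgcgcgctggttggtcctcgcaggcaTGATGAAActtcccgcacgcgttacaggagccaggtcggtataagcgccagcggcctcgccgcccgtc
MTHFD1L: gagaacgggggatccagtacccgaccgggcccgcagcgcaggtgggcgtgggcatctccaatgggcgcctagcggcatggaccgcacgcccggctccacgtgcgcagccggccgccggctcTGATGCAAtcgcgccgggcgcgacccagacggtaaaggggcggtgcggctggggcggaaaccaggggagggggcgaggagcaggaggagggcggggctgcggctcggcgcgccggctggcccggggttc

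ASNS RNA stood at 101 and 62.2 TPM with ADAR1 siRNA, against 41.8 and 41.4 TPM with control siRNA. Both ADAR1 siRNA libraries were above both controls, replicate 1 by more. Its footprints did not follow: they were 7.65 and 6.56 TPM with ADAR1 siRNA, against 7.51 and 10.9 TPM with control siRNA, and overlapped. The RNA log2 fold change was 0.97 ± 0.18, with an edgeR adjusted p of 0.0672, and the footprint one was -0.27 ± 0.23 (adjusted p = 0.505). Leaving out ADAR1 siRNA Input replicate 1 or replicate 2 brought the RNA log2 fold change to 0.66 and 1.22. Leaving out control Input replicate 1 or replicate 2 brought it to 1.01 and 0.92. The gene overlaps CZ1P-ASNS, a readthrough RNA that the table does not list.

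PYCR1, the last enzyme of proline synthesis (gene 5831; chromosome 17, 81932391 to 81937300), had 60.8 and 58.4 TPM in ADAR1 siRNA Input, against 61.7 and 67.1 TPM in control Input. Its footprints were 41.8 and 38.5 TPM with ADAR1 siRNA, against 35.3 and 41.4 TPM with control siRNA. RNA lay slightly below the controls and footprint TPM overlapped, with log2 fold changes of -0.14 ± 0.08 and 0.24 ± 0.17 (edgeR adjusted p = 0.347 and 0.414). In footprint counts scaled by TMM (a library scaling) it was above both controls. PYCR1 and PSPH were the enzyme genes whose footprint log2 fold change was above 0.

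Counted over the 9 genes tested, RNA log2 fold changes were above 0 for 7 and below 0 for 2, with a median of 0.20, beside a median of 0.00 and 50.6% above 0 over all 12644 genes. By edgeR 0 of 9 passed, against a background of 0.253% of all genes (0.0791% up, 0.174% down), and 3 had an unadjusted p under 0.05 (ASNS, PSAT1 and SHMT1), against 25.3%. DESeq2 called ASNS, against 3.55% of all genes, and limma-voom called 0, against 0.237%. RNA TPM did not overlap for 4 genes above the controls (PSAT1, PSPH, MTHFD1L and ASNS), where 29.2% of all genes did so, and for 2 below them (SHMT1 and PYCR1), where 27.9% did. Leaving out ADAR1 siRNA Input replicate 1 brought the median to 0.04 over 10 genes tested, and leaving out replicate 2 brought it to 0.24 over 9.

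For footprints the counts ran the other way: 2 of 9 log2 fold changes were above 0 and 7 below it, with a median of -0.37, beside 0.05 and 54.4% above 0 over all 12000 genes. By edgeR 0 of 9 passed, against 3.54% of all genes (1.88% up, 1.67% down), and 4 had an unadjusted p under 0.05 (PHGDH, PSAT1, SHMT1 and SHMT2), against 24%. DESeq2 called these same 4 genes, against 8.15% of all genes, and limma-voom called 0, against 2.08%. Footprint TPM lay below both controls for 6 of the 9, where 31.2% of all genes did so, and above both for PSPH alone, where 23.0% did. Without ADAR1 siRNA Ribo-seq replicate 1 or replicate 2 the median was -0.48 in either case. The median was -0.28 without control Ribo-seq replicate 2, where ASNS stood at 0.00, and -0.50 without control Ribo-seq replicate 1.

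**Figure D2:**
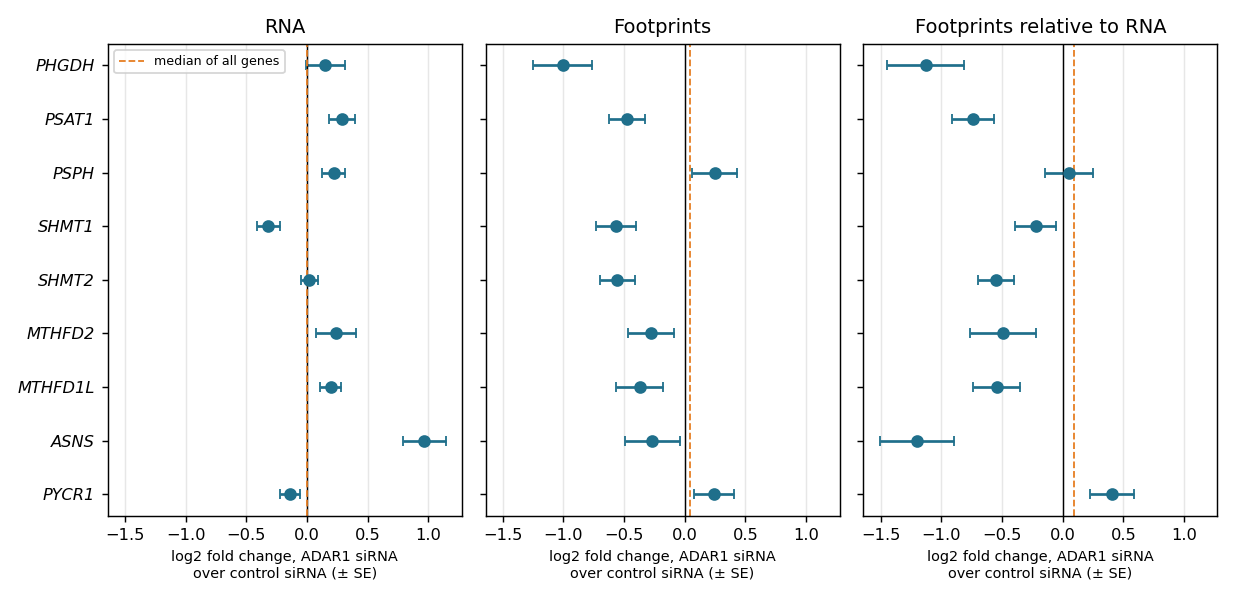
Log2 fold change of ADAR1 siRNA over control siRNA (points, edgeR estimates; bars ± SE) for the 9 tested enzyme genes in RNA, in footprints and in footprints relative to RNA; the dashed line is the median of all genes tested. ASNS stands at 0.97 in RNA, PHGDH at -1.01 in footprints, and both are below -1.1 in the third panel.

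Translational efficiency, the footprint level of a gene relative to its RNA level, was lower with ADAR1 siRNA in the authors' deposited values for most of these genes. ASNS had a deposited efficiency of 0.0760 and 0.106 with ADAR1 siRNA, against 0.180 and 0.264 with control siRNA. PHGDH had 0.106 and 0.233 with ADAR1 siRNA, against 0.298 and 0.474 with control siRNA. For both, replicate 1 was the lower library in each arm and the arms did not overlap.

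PSAT1 had a deposited efficiency of 0.202 and 0.287 with ADAR1 siRNA, against 0.434 and 0.454 with control siRNA. SHMT2 had 0.253 and 0.358 with ADAR1 siRNA, against 0.458 and 0.510 with control siRNA. MTHFD1L had 0.135 and 0.168 with ADAR1 siRNA, against 0.269 and 0.279 with control siRNA. These 3 enzymes, of serine synthesis and of the mitochondrial folate pathway, were below both controls in each ADAR1 siRNA library.

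MTHFD2 stood at 0.401 and 0.521 with ADAR1 siRNA, against 0.661 and 0.784 with control siRNA. SHMT1 stood at 0.423 and 0.568 with ADAR1 siRNA, against 0.594 and 0.687 with control siRNA. PSPH was closer to its controls, at 0.647 and 0.650 with ADAR1 siRNA, against 0.714 and 0.678 with control siRNA. PYCR1 alone of the 9 was above its controls, at 0.687 and 0.660 with ADAR1 siRNA, against 0.572 and 0.617 with control siRNA. Deposited efficiency was below both controls for 8 of the 9, where 28.3% of 12357 genes were, and above both for 1, where 24.6% were.

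By deposited efficiency ASNS ranked at percentiles 7.28 and 6.88 with ADAR1 siRNA, against 21.0 and 32.4 with control siRNA. The ranks are among genes whose counts averaged 50 or more in both assays. They depend on the counts per TPM, which differed between assays for some genes. In ADAR1 siRNA replicate 1 ASNS had 1395 Input counts at 101 TPM and 306 Ribo-seq counts at 7.65 TPM. PSPH there had 556 Input counts at 39.8 TPM and 373 Ribo-seq counts at 25.8 TPM. PHGDH stood at percentiles 13.7 and 27.5 with ADAR1 siRNA, against 39.1 and 55.8 with control siRNA. PSPH, at 71.2 and 67.0 with ADAR1 siRNA and 72.6 and 69.1 with control siRNA, kept to a narrow range. The median efficiency of these genes (9736 with ADAR1 siRNA and 9735 with control siRNA) was 0.340 and 0.413 with ADAR1 siRNA and 0.388 and 0.414 with control siRNA.

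In the count model over all 8 libraries, the change of footprints relative to RNA was -1.20 ± 0.31 (log2, SE) for ASNS, -1.13 ± 0.31 for PHGDH and -0.74 ± 0.17 for PSAT1 (edgeR adjusted p = 0.0639, 0.0775 and 0.0598). It was -0.55 ± 0.15 for SHMT2, -0.54 ± 0.19 for MTHFD1L, -0.49 ± 0.27 for MTHFD2 and -0.22 ± 0.17 for SHMT1, and 0.40 ± 0.18 for PYCR1 and 0.05 ± 0.20 for PSPH, with edgeR adjusted p-values from 0.0767 to 0.911. By edgeR 0 of 9 passed, against 0.0463% of all 12953 genes (0.0154% up, 0.0309% down), and 6 had an unadjusted p under 0.05 (ASNS, PHGDH, PSAT1, SHMT2, MTHFD1L and PYCR1), against 22.7%. DESeq2 called 4 (ASNS, PHGDH, PSAT1 and SHMT2), against 7.58% of all genes, and limma-voom called 0, against 0%. With Input and Ribo-seq libraries of the same siRNA and number as a block, edgeR called 3 (ASNS, PHGDH and PSAT1), against 9.02% of all genes. The median over the 9 was -0.54, with 7 below 0, beside 0.09 over all genes; ratios of deposited TPM sat lower than this model by 0.12 at the median of all genes, and PSPH differs in sign between them. Leaving out ADAR1 siRNA Ribo-seq replicate 2 brought the enzyme median to -0.60 and leaving out replicate 1 to -0.46, each over 10 genes tested.

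**Figure D3:**
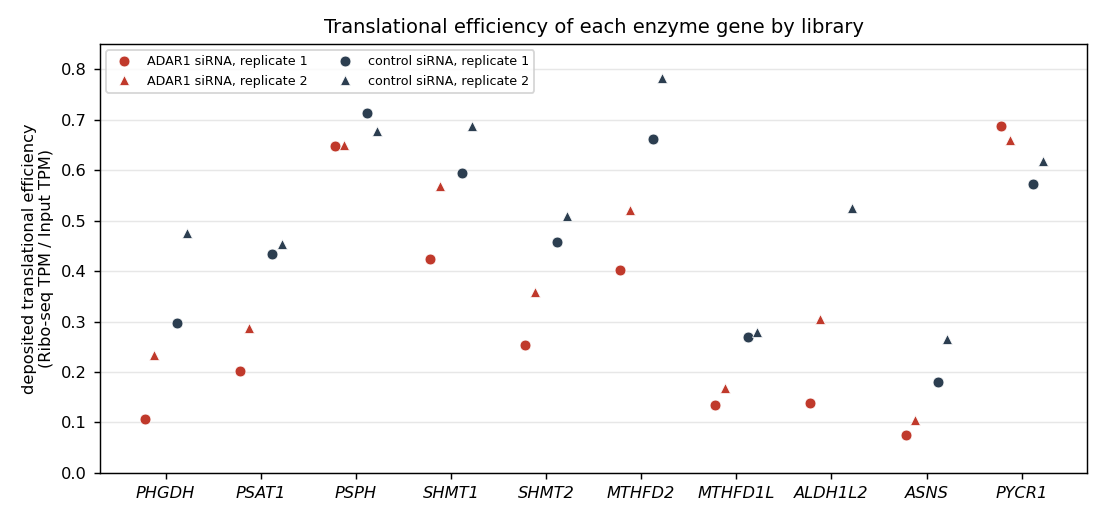
The authors' deposited translational efficiency (Ribo-seq TPM over Input TPM of the same siRNA and replicate number) of each enzyme gene, with ADAR1 siRNA left of control siRNA, circles for replicate 1 and triangles for replicate 2. ADAR1 siRNA points lie below both controls for the tested genes other than PYCR1; ALDH1L2 rests on 1 to 3 footprint counts where drawn and has no value in control replicate 1.

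RNA and footprint differences pointed apart for most of the set: 6 of the 9 (PHGDH, PSAT1, SHMT2, MTHFD2, MTHFD1L and ASNS) had a log2 fold change above 0 in RNA and below 0 in footprints, as did 21.0% of the 11743 genes tested in both assays. SHMT1 was below 0 in both, PSPH above 0 in both, and PYCR1 below 0 in RNA and above it in footprints. For PHGDH, SHMT2 and MTHFD2 the RNA sign turned without ADAR1 siRNA Input replicate 1 (-0.06, -0.04 and -0.04).

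**Figure D4:**
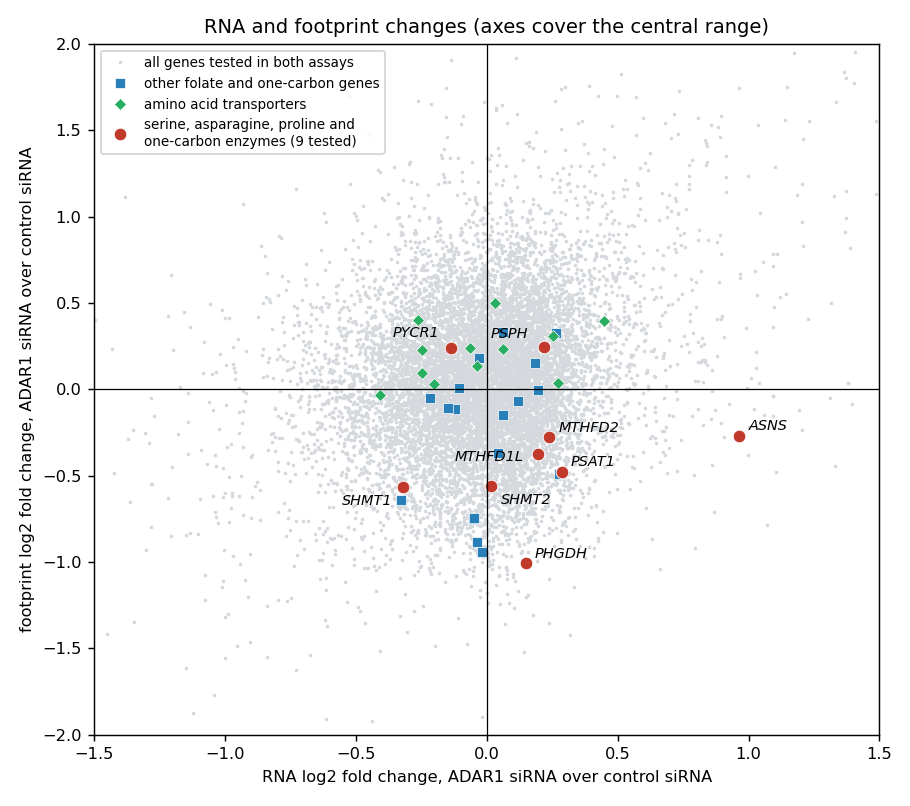
Footprint against RNA log2 fold change of ADAR1 siRNA over control siRNA for the 9 tested enzyme genes (red, named), other folate and one-carbon genes (blue), amino acid transporters (green) and all genes tested in both assays (grey). The 6 enzyme genes at the lower right have RNA above 0 and footprints below 0, whereas 11 of the 12 transporters have footprints above 0.

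Other genes of folate and one-carbon metabolism were read from a list of 23. In RNA 0 of 18 tested passed by edgeR, and 3 had an unadjusted p under 0.05, against 25.3% of all genes. In footprints 4 of 18 fell, against 1.67% of all genes, 0 rose and 14 did not pass. MTHFD1, the cytosolic enzyme that joins formate to folate, averaged 17.9 ± 6.15 TPM with ADAR1 siRNA and 36.3 ± 6.17 TPM with control siRNA in footprints (SD, n = 2 each), a log2 fold change of -0.94 ± 0.20. GART and ATIC, which use folate one-carbon units to build purines, fell by 0.74 ± 0.16 and 0.75 ± 0.16, and MTR, which remakes methionine from homocysteine, fell by 0.89 ± 0.19 (log2; edgeR adjusted p = 0.0431 to 0.0443 for the 4). In RNA their log2 fold changes ran from -0.05 to -0.02. All 4 lost their footprint call without control Ribo-seq replicate 2, and GART, ATIC and MTR also without control replicate 1, with log2 fold changes still between -0.90 and -0.61. The median log2 fold change of the whole list was -0.02 in RNA and -0.11 in footprints. For translational efficiency 0 of 19 passed by edgeR (7 at an unadjusted p under 0.05, against 22.7% of all genes). The 7 include ALDH1L1, which did not enter the RNA and footprint tests. It had 0 and 1 Ribo-seq counts with ADAR1 siRNA, against 8 and 3 with control siRNA.

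Of 9 methionine cycle genes 6 were tested, and 1 of the 6 fell in footprints by edgeR, against 1.67% of all genes. This gene, AHCY, which clears S-adenosylhomocysteine, fell by 0.85 ± 0.14 (log2, edgeR adjusted p = 0.0329). Its call was lost without control Ribo-seq replicate 2, at a log2 fold change of -0.77. The other 5 did not pass, and the list had medians of 0.11 in RNA and -0.24 in footprints. Of 19 other serine, asparagine and proline genes 15 were tested and 0 passed by edgeR, with 7 at an unadjusted p under 0.05 in RNA, against 25.3% of all genes, and 6 in footprints, against 24%. Their medians were 0.09 in RNA and -0.36 in footprints, where 12 of 15 were below 0 and 54.4% of all genes were above it. The smallest footprint p-values there belonged to the aspartate aminotransferases GOT2 (-0.61 ± 0.15) and GOT1 (-0.74 ± 0.21), at edgeR adjusted p-values of 0.0583 and 0.0709.

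Amino acid transporters had footprints on the other side of 0. Of 12, 0 passed in either assay by edgeR (4 at an unadjusted p under 0.05 in RNA, against 25.3% of all genes, and 3 in footprints, against 24%). Of the 12 footprint log2 fold changes 11 were above 0, against 54.4% of all genes, with a median of 0.23 beside -0.05 in RNA. SLC7A1, a carrier of arginine and lysine, stood at 0.50 ± 0.14 and SLC38A2, a carrier of small neutral amino acids, at 0.40 ± 0.14 (edgeR adjusted p = 0.0726 and 0.118).

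Regulators of the stress response and further ATF4 targets, 22 in all, were also mostly above 0. In RNA 19 of 22 were, against 50.6% of all genes, with a median of 0.27 and 0 called by edgeR (9 at an unadjusted p under 0.05, against 25.3%). In footprints 17 of 21 were, against 54.4% of all genes, with a median of 0.30, and 2 rose, against 1.88%: DDIT3, the transcription factor CHOP, by 1.53 ± 0.26, and PPP1R15A, the phosphatase subunit that reverses eIF2 phosphorylation, by 0.92 ± 0.16 (edgeR adjusted p = 0.0334 and 0.0336). The call of PPP1R15A was lost without either control Ribo-seq library, and that of DDIT3 held whichever library was left out. ATF4 itself stood at 0.14 ± 0.07 in RNA and 0.24 ± 0.17 in footprints, and did not pass (edgeR adjusted p = 0.248 and 0.421). TRIB3, a pseudokinase target of ATF4 and CHOP, stood at 0.56 ± 0.20 and 0.65 ± 0.22, and CHAC1, which degrades glutathione, at 0.33 ± 0.18 and 0.08 ± 0.25.

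The 5 genes whose scaled levels over the 8 libraries lay nearest to those of ASNS, by Euclidean distance of log2 deviations from the control mean of each assay among 11743 genes, were CTH (distance 0.40), H3C10 (0.46), H2AC18 and H2AC19 (0.48 each) and TXNIP (0.53). CTH, the enzyme that releases cysteine from cystathionine, averaged 26.4 ± 8.66 TPM with ADAR1 siRNA and 14.0 ± 1.83 TPM with control siRNA in RNA, and 4.81 ± 0.19 and 5.86 ± 0.72 TPM among footprints (SD, n = 2 each). H2AC18 and H2AC19 are near-identical histone genes with equal values, so their own levels are uncertain.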

How the data were processed

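RNA-seq (Input) and Ribo-seq libraries were grouped by their titles. Per the submitters' processing notes, the tools were STAR, Bowtie2, featureCounts and cutadapt, with build GRCh38; their versions, settings and strand handling are not stated there. The authors deposited, per gene and library, an estimated count without normalization (87.0% to 90.1% whole numbers per library), TPM, and translational efficiency as a ratio; at least 99.99% of the deposited ratios equalled Ribo-seq TPM over Input TPM of the same siRNA and replicate number within 0.1%. Depth ran from 10492223 to 17153716 estimated counts per library. Gene numbers were matched to RefSeq symbols of GRCh38.p14 (19669 of 19892).

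Estimated counts were rounded and fitted over all genes in edgeR 4.0.16 (R 4.3.3) with TMM scaling, filterByExpr and two-sided quasi-likelihood tests, Benjamini-Hochberg adjusted at 0.05: RNA over 4 Input libraries, footprints over 4 Ribo-seq libraries, and translational efficiency as the interaction of assay and siRNA over 8. The SE is the absolute log2 fold change divided by the root of the quasi-likelihood F. With 2 libraries per group an exact permutation test cannot go below a two-sided p of 0.333, so p-values come from a spread shared across genes. Alternatives were DESeq2 1.42.0, limma-voom (limma 3.58.1), RLE and upper-quartile scaling, other count filters, replicate blocks and leaving out each library. The fits were tested on simulated data.

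The members and the lists were chosen with earlier results of these data known. Named besides the members are ADAR, ATF4, DDIT3, CHAC1 and TRIB3, the list genes that passed in any comparison (or the 2 of smallest footprint p), and the 5 genes nearest to ASNS. ALDH1L2 was filtered from the tests; its values come from the deposited table. Motif matches describe letters only.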

Additional observations from a re-analysis of the deposited data

How the results depend on the processing

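The direction of most enzyme values held, while the number called by the tests moved with the setting. Over the alternatives run, 85 of 99 RNA values of the enzymes, 74 of 99 footprint values and 120 of 144 translational efficiency values kept their direction and their side of the threshold, and the rest mostly gained a call. RNA gave 0 enzymes of 32 genes called in the main setting, 1 of 449 with DESeq2, 1 of 1095 with the replicate block, 73 genes where counts averaged 50 or more, 95 with no filter and 11 with upper-quartile scaling. Footprints gave 0 enzymes of 425 genes, 4 of 978 with DESeq2, 3 of 1693 with no filter and 4 of 2102 with the replicate block. They gave 1 enzyme of 525 genes where counts averaged 50 or more, 1 of 470 with RLE scaling and 0 of 250 with limma-voom. The split of all footprint calls was 225 higher and 200 lower, 311 higher and 176 lower with upper-quartile scaling, 211 higher and 259 lower with RLE scaling and 391 higher and 587 lower with DESeq2. Translational efficiency gave 0 enzymes of 6 genes, 4 of 982 with DESeq2, 3 of 854 with no filter, 2 of 448 with the replicate block, 3 of 1169 with a block of Input and Ribo-seq libraries of the same siRNA and number, 2 genes where counts averaged 50 or more and 0 with limma-voom (2885 at an unadjusted p under 0.05). The footprint median was -0.33 with no filter and -0.32 with upper-quartile scaling.

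Leaving out 1 library at a time, all genes called ran from 0 to 5420 in RNA (0 without either control, with 958 and 1055 at an unadjusted p under 0.05), from 77 to 3415 in footprints and from 0 to 2252 in translational efficiency; enzymes called ran from 0 to 7, 0 to 5 and 0 to 5. Enzyme medians ran from 0.04 to 0.24, from -0.50 to -0.28 and from -0.67 to -0.46. With 1 library left in an arm, the lone library is assumed to vary like the others. Some values that had not passed changed sign with 1 library left out. In RNA these were PHGDH (-0.062 to 0.336), SHMT2 (-0.044 to 0.078), MTHFD2 (-0.042 to 0.476), MTHFD1 (-0.081 to 0.041), SLC7A1 (-0.040 to 0.098) and GART (-0.0998 to 0.0054). In footprints they were ASNS (-0.503 to 0.0014) and CHAC1 (-0.19 to 0.264). In translational efficiency they were PSPH (-0.106 to 0.193, and -0.0063 where counts averaged 50 or more), ADAR (-1.16 to 0.938), ATF4 (-0.103 to 0.326), CHAC1 (-0.511 to 0.019), TRIB3 (-0.221 to 0.383) and SLC38A2 (-0.293 to 0.136). The cause of these shifts was not tested. Samples sharing a replicate number across siRNAs did not deviate together (r = 0.03 in Input and 0.06 in Ribo-seq over 10930 genes), so the numbers were not taken to pair samples across siRNAs, and the replicate block is an alternative only. Input and Ribo-seq libraries of the same number had r = 0.39 with ADAR1 siRNA and 0.005 with control siRNA, so a link within a number was seen in the ADAR1 siRNA arm alone. Depth left ALDH1L2 out of the tests, and footprint counts of PHGDH, MTHFD1L and ASNS were 116 to 306 per library.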

Other observations

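In TPM, the balance of the cytosolic and mitochondrial serine hydroxymethyltransferases differed between assays. SHMT2 held 8.65 and 7.98 times the TPM of SHMT1 in ADAR1 siRNA Input, against 6.57 and 6.88 times in control Input. Among footprints the ratio was 5.17 and 5.03 with ADAR1 siRNA, against 5.06 and 5.11 with control siRNA, and overlapped. The gap between assays depends on the counts per TPM, which differed between assays for both genes. In control replicate 2 SHMT2 had 3163 Input counts at 211 TPM and 2492 Ribo-seq counts at 107.7 TPM. SHMT1 there had 536 Input counts at 30.7 TPM and 460 Ribo-seq counts at 21.1 TPM. How much of the gap came from the unit was not tested. PSAT1 held 11.8 and 8.07 times the footprint TPM of PHGDH with ADAR1 siRNA, against 7.88 and 5.92 times with control siRNA.

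Other promoter letters were searched on both strands in the same 250-base windows. The E-box CACGTG was found in 1 of 6 windows, that of MTHFD1L, 154 to 149 bases before the start, and in 6.49% of 27305 promoters. TGACNNNGC, the core of the antioxidant response element, was found in 0 of the 6 and in 11% of promoters.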
